A study of Mus musculus with 8 samples.

Results

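The nuclear genes of the mitochondrial respiratory chain and ATP synthase were followed through development of the mouse retina. Members were chosen by name alone, as every gene whose symbol began with Ndufa, Ndufab, Ndufb, Ndufc, Ndufs, Ndufv, Uqcr, Cox4 to Cox8 or Atp5, or was Sdha, Sdhb, Sdhc or Sdhd, with the Ndufaf assembly factors left out. The rule found 86 genes of the 21827 in the tables, of which 83 encode subunits of complexes I to V. The remaining 3, Atp5s, Atp5sl and Cox4nb, share the name but are not subunits.

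The respiratory chain passes electrons from NADH and succinate to oxygen through complexes I to IV and pumps protons across the inner mitochondrial membrane, and the ATP synthase, complex V, uses the returning protons to make ATP. Rod photoreceptors are among the most energy-demanding cells of the body, and their mitochondria are packed in the inner segment close to the light-sensing outer segment. A few subunits of complex IV, cytochrome c oxidase, exist in a general form and in a second form found in particular tissues. The subunits that the mitochondrial genome itself encodes were not analysed here.

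RNA was sequenced from ICR mice, an outbred stock, at E15 and E18 as unsorted whole retina, and at P2, P5 and P8 after live retinal cells were sorted by an antibody to Cd73, the surface enzyme encoded by Nt5e that marks rod precursors and rods. Each sort, made on pooled retinas, gave a Cd73 positive fraction (Cd73PC) and a Cd73 negative fraction (Cd73NC), the second a mixture of all other retinal cells and any rods the gate missed. There was 1 library for each of the 8 conditions, so no value below has a replicate error and no test was made. Values are FPKM, in which reads are scaled for transcript length and library size, and log2 ratios are of FPKM + 1. A gene is called higher or lower, or is said to have risen or fallen, where this ratio passed 1.5-fold, and counts are set beside the same count over the 13431 genes that reached FPKM 1 in at least 1 library, of which 13411 to 13422 had a value in each comparison.

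The sort was visible in the libraries. FPKM of Nt5e in Cd73PC was 97.3, 131 and 124 from the earliest to the latest sort, and in Cd73NC 2.43, 31.4 and 9.38. The summed FPKM of 8 rod markers was 3909.5, 8244 and 13602 in Cd73PC and 166, 1314 and 1149.6 in Cd73NC, so transcripts of rods were present in the P5 and P8 Cd73NC libraries. Markers of other cells were present in Cd73PC as well. Those of Muller glia, 5 genes, summed to 360, 348 and 294 in Cd73PC and to 601, 1178 and 1024 in Cd73NC. Cd73PC is therefore read as enriched for rods, not as rods alone. Globin and other erythroid transcripts were present too, with a sum of 5 genes from 36.5 in P2 Cd73PC to 5526 in P8 Cd73NC. Relative depth, read from the steps between low FPKM values, lay between 0.965 and 1.62 times that of E18. The embryonic libraries were unsorted and the later ones sorted, so age and sorting cannot be told apart between them. In these bulk libraries fewer cells of a type and less RNA per cell cannot be told apart.

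Most members were abundant. Of the 86, 83 reached FPKM 1 in at least 1 library and 79 had a mean of at least 10. The muscle form Cox6a2 and the testis forms Cox7b2 and Cox8c stayed below 1 everywhere, and Cox8c was listed at 0 in all 8 libraries. The 83 subunit genes together held 2.53% of the summed FPKM at E15 and 2.92% at E18. In Cd73NC the share was 3.02%, 2.79% and 3.07% at P2, P5 and P8, and in Cd73PC it was 3.65%, 4.90% and 4.51%. The Cd73PC share was thus above that of both embryonic retinas and of the matched Cd73NC at each stage, and was highest at P5.

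**Figure D1:**
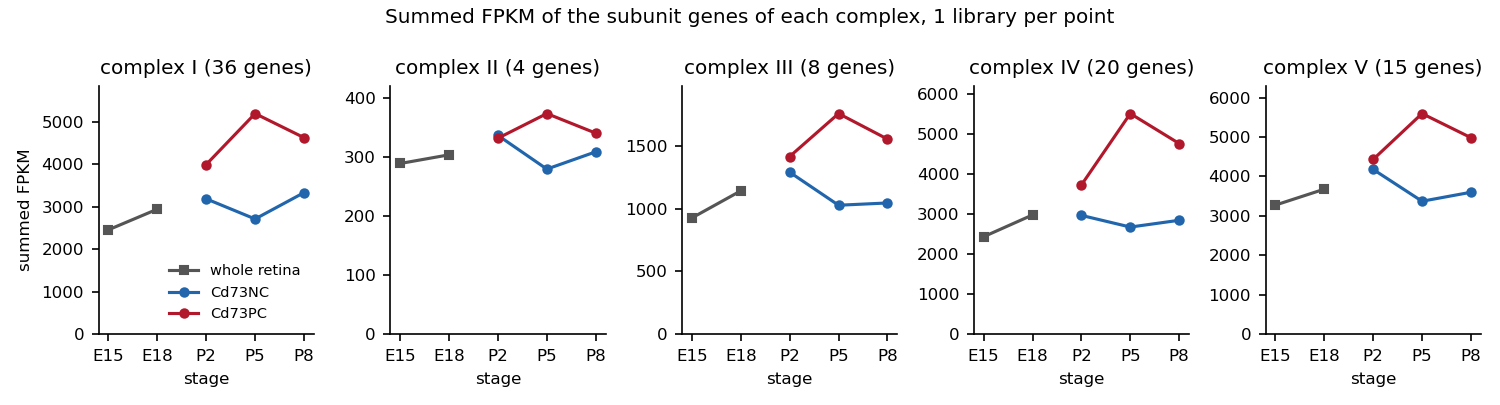
Summed FPKM of the subunit genes of each complex (y axis, from 0) against stage (x axis), with whole retina in grey, Cd73NC in blue and Cd73PC in red and 1 library per point. Each complex had its highest sum in P5 Cd73PC, and complex II had the narrowest range, 279.8 to 374.

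The complexes differed in how far the fractions stood apart. Complex IV was 1.26 times as high in Cd73PC as in Cd73NC at P2, 2.06 times at P5 and 1.67 times at P8, with sums of 3733, 5519.5 and 4769 in Cd73PC and 2971, 2679 and 2849 in Cd73NC. For complex I the ratios were 1.25, 1.92 and 1.39, for complex III 1.10, 1.71 and 1.49, and for complex V 1.06, 1.66 and 1.38. Complex II, which also serves the citric acid cycle as succinate dehydrogenase, gave 0.986, 1.34 and 1.10. It had the ratio nearest to 1 at every stage.

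The comparison of the fractions at each stage asks which genes have higher values in the rod-enriched Cd73PC than in Cd73NC. At P2, 7 members were higher in Cd73PC and 3 were lower, against 13.7% and 23.3% of all genes. The median log2 ratio of the members was 0.19 and that of all genes -0.13. The 7 higher genes, 8.14% of the members, were the complex I genes Ndufv3, Ndufb10, Ndufb8 and Ndufa5, the complex IV genes Ndufa4 and Cox8a, and Atp5s. That share was below the background, while 68 of 86 members had a ratio above 0, against 5363 of 13420 over all genes.

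At P5, 61 of 86 members, 70.9%, were higher in Cd73PC and 3 were lower, against 11.3% and 25.1% of all genes, with a median of 0.74 against -0.17. Of the 36 complex I genes 30 were higher, of the 8 of complex III 6, of the 20 of complex IV 12, of the 15 of complex V 11, and of the 4 of complex II 1, Sdhd. Members have short transcripts, with a median length of 868 bases for the longest annotated transcript against 2854 for genes of mean FPKM 10 or more. Under 1000 bases were 50 of the 86 members. In 460 other genes under 1000 bases and of mean FPKM 10 or more, the median ratio was -0.09, 0.20 and -0.07 at P2, P5 and P8, and 22.0% were higher at P5. Without cytosolic ribosomal proteins, 409 such genes had a median of 0.24 at P5 and 24.2% were higher. Short genes as a class therefore stood higher at P5 than at the other stages, by less than the members did, and the part of this in the P5 count was not tested.

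At P8, 27 members, 31.4%, were higher in Cd73PC and 3 were lower, against 12.1% and 29.6% of all genes, with medians of 0.40 and -0.22. With libraries scaled to one upper quartile the counts of higher members were 12 at P2 and 43 at P8. The share of all genes was not counted under that scaling, and their median moved up as well, to -0.08 and -0.09. Across all 3 stages, 4 members were higher each time (Ndufb8, Ndufa4, Cox8a and Ndufb10) and 3 lower each time (Cox4i2, Ndufa4l2 and Cox6b2), where 5.7% and 12.7% of all genes did so. At 2 or 3 stages, 29 members, 33.7%, were higher and 3 lower, against 10.6% and 24.4% of all genes. The genes nearest the threshold were Atp5s (1.53-fold) and Ndufb9 (1.49-fold) at P2, Ndufa6 (1.503-fold) and Ndufa3 (1.45-fold) at P5, and Ndufs3 (1.52-fold) and Ndufb5 (1.49-fold) at P8. Taking the 3 libraries of each fraction together regardless of stage, 50 of 86 members, 58.1%, had their lowest Cd73PC value above their highest Cd73NC value, a pattern found in 12.4% of all genes. The opposite pattern was found in 1 member, Cox4i2, and in 22.2% of all genes.

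**Figure D2:**
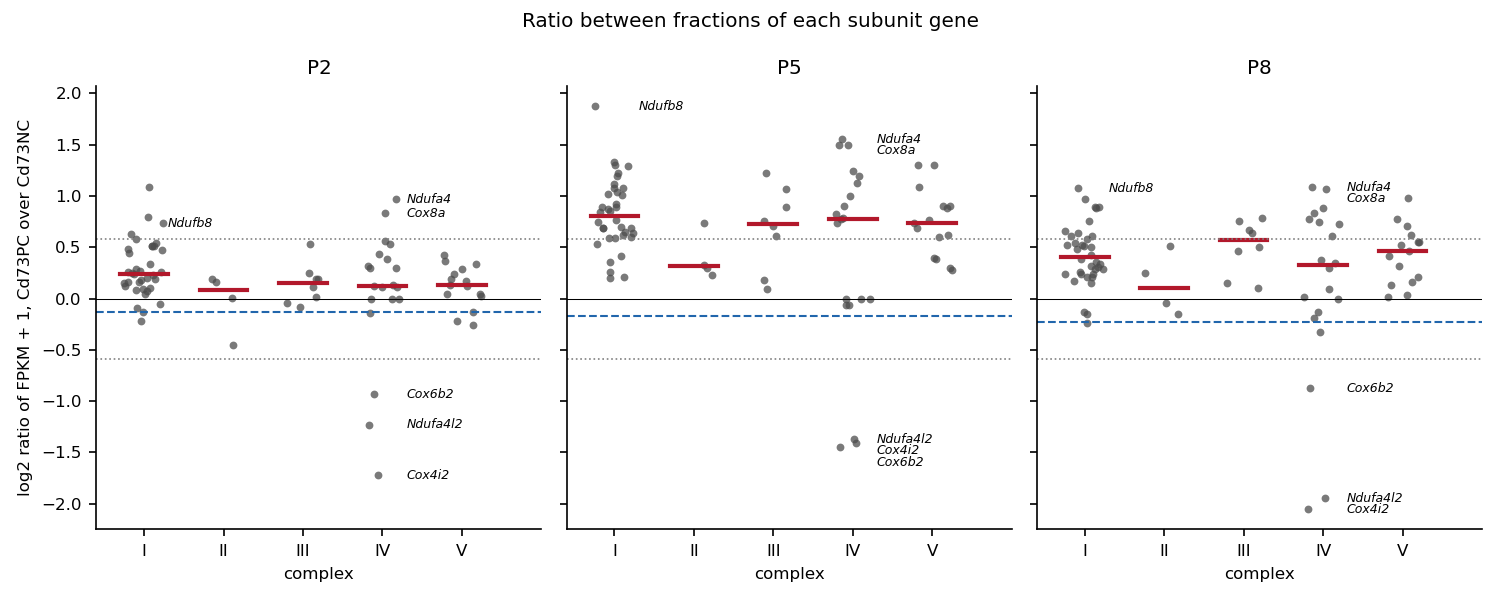
Log2 ratio of FPKM + 1, Cd73PC over Cd73NC (y axis), for each subunit gene by complex (x axis) at P2, P5 and P8. Each grey point is 1 gene, red bars are medians, the blue dashed line is the median of all genes and dotted lines mark 1.5-fold. At P5 the complex I, III, IV and V medians lie at 0.81, 0.73, 0.78 and 0.73, while the same 3 complex IV genes lie below the lower dotted line at each stage.

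Promoters of the 4 members higher at all 3 stages, and of the 3 lower at all 3, were looked up in a RefSeq-based table of windows from 250 bases before to 50 after the start of a gene (GRCm38.p6, a later build than the mm9 of the expression values). Of the 86 members 70 had an entry, 3 of them under the newer symbols Atp5pb, Dmac2l and Dmac2, and the entries of Ndufb8, Ndufb10, Cox8a and Cox6b2 held a motif and are shown 5′ to 3′ with it in capitals, as found on either strand. Cox4i2 and Ndufa4l2 had no entry. The motifs searched on both strands were the NRF1 core (GCGCANGCG), the ETS core bound by GABP (CCGGAAGT), YY1 (AAGATGGCG), the ERR site (TCAAGGTCA), the CRX core (TAATCC) and the Sp1 box (GGGCGG), none of which contains another. Ndufb8 (chr19:44555393-44555692, minus strand) held an Sp1 box, Ndufb10 (chr17:24724374-24724673, minus strand) an NRF1 core, Cox8a (chr19:7217567-7217866, minus strand) the ETS core at 2 places and Cox6b2 (chr7:4753045-4753344, minus strand) an Sp1 box followed by a CRX core.
Ndufb8: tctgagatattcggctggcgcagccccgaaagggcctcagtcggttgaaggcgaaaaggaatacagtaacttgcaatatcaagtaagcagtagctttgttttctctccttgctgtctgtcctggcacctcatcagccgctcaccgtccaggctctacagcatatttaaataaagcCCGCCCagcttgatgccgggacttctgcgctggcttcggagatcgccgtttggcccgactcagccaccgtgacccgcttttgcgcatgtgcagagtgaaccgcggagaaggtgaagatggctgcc
Ndufb10: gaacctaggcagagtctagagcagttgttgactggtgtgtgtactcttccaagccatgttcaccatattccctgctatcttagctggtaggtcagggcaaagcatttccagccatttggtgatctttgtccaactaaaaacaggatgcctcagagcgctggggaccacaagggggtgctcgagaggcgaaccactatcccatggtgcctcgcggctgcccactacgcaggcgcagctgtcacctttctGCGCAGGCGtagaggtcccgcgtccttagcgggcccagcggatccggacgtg
Cox8a: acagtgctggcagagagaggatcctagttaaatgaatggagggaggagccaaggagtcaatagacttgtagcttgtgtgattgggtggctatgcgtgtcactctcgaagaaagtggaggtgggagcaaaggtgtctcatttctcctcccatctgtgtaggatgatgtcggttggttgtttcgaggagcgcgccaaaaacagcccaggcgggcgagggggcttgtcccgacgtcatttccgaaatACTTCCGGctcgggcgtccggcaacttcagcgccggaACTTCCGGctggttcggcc
Cox6b2: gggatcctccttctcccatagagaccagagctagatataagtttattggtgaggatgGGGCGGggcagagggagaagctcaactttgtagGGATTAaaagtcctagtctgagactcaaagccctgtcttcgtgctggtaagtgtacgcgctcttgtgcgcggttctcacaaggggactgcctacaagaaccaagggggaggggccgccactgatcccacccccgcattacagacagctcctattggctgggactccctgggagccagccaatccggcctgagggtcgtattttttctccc
The window of Ndufa4 held none of the 6. A match is only a run of letters, and none was tested for binding.

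Over the 70 promoters the NRF1 core, the letters recognised by the nuclear respiratory factor, stood in 20, or 28.6%, against 7.03% of all 27025 genes in the table and 15.0% of the 9430 genes expressed here that had an entry by symbol. YY1 stood in 8 (11.4%, against 1.64% and 3.39%). The ERR site, bound by estrogen-related receptors, stood in 2, Atp5g3 and Sdhd, a share of 2.86% against 0.466% and 0.35%. The ETS core stood in 7.14% against 4.31% and 8.58%, the CRX core in 8.57% against 8.14% and 6.99%, and the Sp1 box in 41.4% against 38.2% and 70.2%. Members with an NRF1 core had a median log2 ratio of 0.89 at P5 and the other 50 one of 0.74. For the CRX core these medians were 0.47 with and 0.78 without, and for the Sp1 box 0.65 with and 0.89 without.

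Complex I, the NADH dehydrogenase, held the member with the largest mean log2 ratio in favour of Cd73PC. Ndufb8, an accessory subunit of the membrane arm (mm9 chr19:44624744-44629905), stood at FPKM 163 at E15 and 184 at E18, and at 155 in Cd73NC against 258 in Cd73PC at P2, 146 against 538 at P5 and 189 against 399 at P8. Every Cd73PC library was above every other library, and the ratio of FPKM between fractions was 1.66, 3.69 and 2.11. Ndufb10, a neighbouring accessory subunit, stood at 94.6 at E15 and 104 at E18, and at 96.4 in Cd73NC against 168 in Cd73PC at P2, 101 against 232 at P5 and 117 against 216 at P8, with log2 ratios of 0.80, 1.19 and 0.89. Its Cd73PC values likewise did not overlap with those of any other library.

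Other membrane arm genes moved in the same way at P5 and P8 without passing the threshold at P2. Ndufb9 had log2 ratios of 0.58, 1.30 and 0.89, Ndufa1 of 0.48, 1.29 and 0.66, Ndufb2 of 0.48, 1.33 and 0.61, Ndufb11 of 0.51, 0.89 and 0.97 and Ndufb4 of 0.34, 1.08 and 0.89. Of the 20 membrane arm genes, 18 were higher at P5 and 7 at P8. In the arm that takes up NADH (N module, 10 genes) the counts were 8 and 1, and in the ubiquinone-reducing part between them (Q module, 6 genes) 4 and 2. Over all genes 11.3% were higher at P5 and 12.1% at P8, so the N module share at P8, 10%, was below the background.

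The core subunits of complex I varied among themselves. Ndufv1, which binds NADH and its flavin, was at 83.9 in Cd73NC against 100.3 in Cd73PC at P2, 79.8 against 152 at P5 and 87.0 against 148 at P8, and was higher at P5 and P8. Ndufs1, the large iron-sulfur subunit, was at 30.2 in Cd73NC against 31.9 in Cd73PC at P2, 26.8 against 31.0 at P5 and 34.2 against 38.1 at P8 and passed the threshold at no stage. The log2 ratios of 4 other core genes at P2, P5 and P8 were 0.25, 0.60 and 0.36 for Ndufv2, 0.19, 0.68 and 0.61 for Ndufs3, 0.25, 1.12 and 0.63 for Ndufs7 and 0.11, 0.74 and 0.32 for Ndufs8. All of these 4 were higher in Cd73PC at P5.

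Ndufv3, an accessory subunit beside the NADH site, was higher in Cd73PC at P2 and P5 and not at P8. It was at 116 in Cd73NC against 248 in Cd73PC at P2, 173 against 357 at P5 and 349 against 319 at P8, after 113 at E15 and 157 at E18. From P2 to P8 the Cd73NC value rose by 1.58 on the log2 scale and met the Cd73PC value, whose own change was 0.36. Ndufc2 went the other way in time, from 141 to 111 and 95.1 in Cd73PC, a log2 ratio of -0.56 that did not pass 1.5-fold. The Ndufs5 values are uncertain, since it overlaps the row of BC002163 by 5452 bases and reads were not assigned by strand. Shorter overlaps, of 16 bases for Ndufa4l2 with Shmt2, 62 for Ndufb11 with Rbm10, 228 for Uqcrc2 with Pdzd9 and 451 for Atp5j with Gabpa, may also have shared reads.

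Complex II showed little difference. Sdhb, its iron-sulfur subunit, was at 90.8 in Cd73NC against 66.1 in Cd73PC at P2, 61.7 against 72.3 at P5 and 66.5 against 64.4 at P8. Sdha, its flavin subunit, was at 68.5 in Cd73NC against 76.5 in Cd73PC at P2, 59.7 against 75.2 at P5 and 75.7 against 90.2 at P8. Neither passed 1.5-fold at any stage, and the Cd73PC and Cd73NC values of both overlapped. The membrane anchor Sdhd was higher at P5 with a log2 ratio of 0.74, and the other anchor, Sdhc, had ratios of 0.00, 0.30 and -0.15.

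In complex III, which passes electrons to cytochrome c, the small subunits Uqcr11 and Uqcrq stood further apart at P5 than the core proteins and the Rieske protein. Uqcr11 was at 174 in Cd73NC against 207 in Cd73PC at P2, 147 against 308 at P5 and 152 against 256 at P8. Uqcrq was at 213 in Cd73NC against 207 in Cd73PC at P2, 154 against 361 at P5 and 182 against 313 at P8. Both were higher in Cd73PC at P5 and P8, with log2 ratios of 1.07 and 0.75 for Uqcr11 and of 1.23 and 0.78 for Uqcrq. The core protein Uqcrc1 had ratios of 0.19, 0.70 and 0.64. The Rieske iron-sulfur protein Uqcrfs1, a subunit that carries electrons, was at 118 in Cd73NC against 127 in Cd73PC at P2. It was at 101 against 115 at P5 and 95.2 against 102 at P8, with no ratio past 1.5-fold. The core protein Uqcrc2 had ratios of -0.08, 0.09 and 0.15. Cyc1, the cytochrome of this complex that the naming rule does not reach, had ratios of -0.13, 0.72 and 0.26, and the electron carrier Cycs of 0.03, 0.45 and 0.33.

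**Figure D3:**
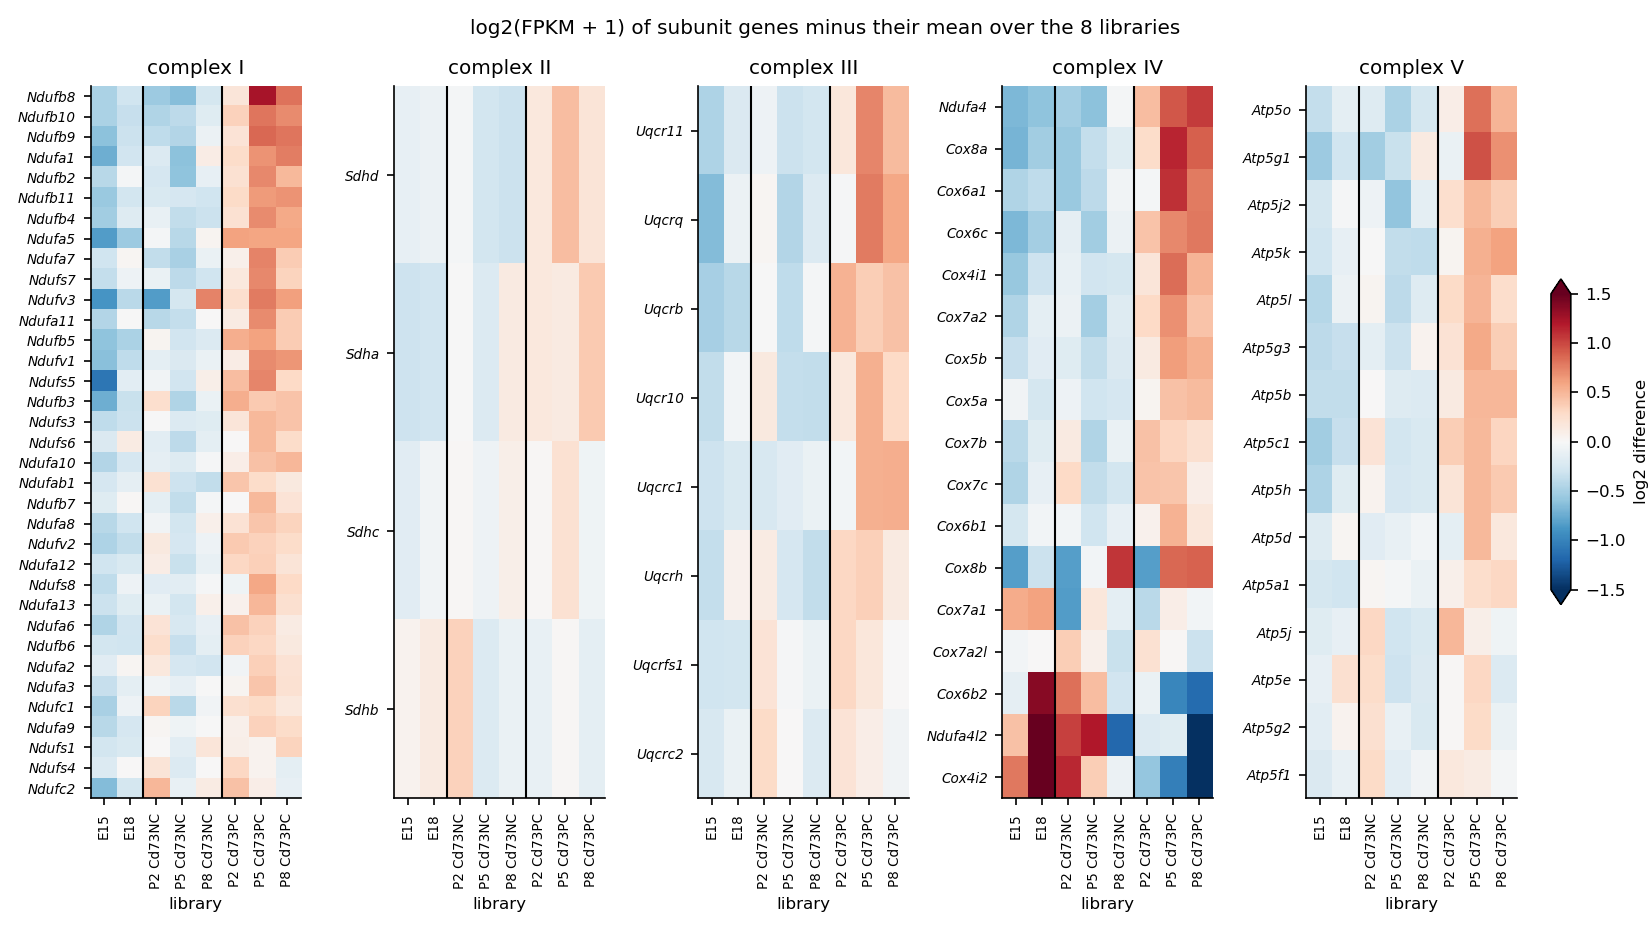
Log2(FPKM + 1) of 79 of the 80 subunit genes that reached FPKM 1 (rows, by complex) minus the mean of the gene over the 8 libraries (columns), with red for above and blue for below the mean and colours saturated beyond 1.5. The P5 and P8 Cd73PC columns are red for most rows, and Cox4i2, Ndufa4l2 and Cox6b2 at the foot of complex IV run the other way.

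Complex IV held both the strongly Cd73PC-higher and the Cd73NC-higher members. Cox8a, a small membrane subunit (mm9 chr19:7289648-7292106), stood at 277 at E15 and 312 at E18, and at 306 in Cd73NC against 544 in Cd73PC at P2, 352 against 993 at P5 and 397 against 836 at P8. Ndufa4, first named for complex I and now counted as a subunit of complex IV (mm9 chr6:11850373-11857446), stood at 223 at E15 and 232 at E18, and at 249 in Cd73NC against 488 in Cd73PC at P2, 231 against 679 at P5 and 347 against 736 at P8. For both genes the lowest Cd73PC library was above the highest of the other 5, and the log2 ratios were 0.83, 1.49 and 1.07 for Cox8a and 0.97, 1.55 and 1.08 for Ndufa4.

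Of the 12 subunits in general use, 11 were higher at P5 and 8 at P8, against 11.3% and 12.1% of all genes. Cox6a1, the general form of subunit 6A, was at 278 in Cd73NC against 403 in Cd73PC at P2, 312 against 879 at P5 and 395 against 705 at P8. Cox6c, a membrane subunit, was at 195 in Cd73NC against 289 in Cd73PC at P2, 149 against 353 at P5 and 201 against 372 at P8. Cox4i1, the large regulatory subunit, had log2 ratios of 0.30, 1.12 and 0.77, Cox7a2 of 0.38, 1.19 and 0.61, Cox5b of 0.32, 1.001 and 0.75 and Cox6b1 of 0.11, 0.82 and 0.30. Cox7a2l, which links complex IV to complex III in supercomplexes, was the exception, at 243 in Cd73NC against 221 in Cd73PC at P2, 199.7 against 192 at P5 and 149 against 151 at P8. Its 2 fractions were close at each stage and both had lower values at P8 than at P2, past 1.5-fold in Cd73NC.

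The alternative forms of complex IV subunits did not follow their general partners. Cox4i2, the form of subunit 4 best known from lung (mm9 chr2:152579909-152590773), stood at 61.8 at E15 and 106 at E18, and at 79.1 in Cd73NC against 23.3 in Cd73PC at P2, 46.2 against 16.8 at P5 and 33.2 against 7.26 at P8. Its highest Cd73PC value was below its lowest value elsewhere, and Cd73NC exceeded Cd73PC by 3.40-fold, 2.74-fold and 4.57-fold in FPKM. Cox4i2 made up 14.8% of the summed FPKM of both forms at E15 and 19.8% at E18, then 13.9%, 9.61% and 6.99% in Cd73NC and 3.72%, 1.74% and 0.951% in Cd73PC. The share of Cox4i2 declined from P2 to P8 in both fractions and was lower in Cd73PC at each stage.

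Ndufa4l2, the alternative to Ndufa4 and a known hypoxia-induced gene (mm9 chr10:126951995-126954210), stood at 118 at E15 and 350.4 at E18, and at 177 in Cd73NC against 74.9 in Cd73PC at P2, 199 against 76.2 at P5 and 37.6 against 9.03 at P8. At E18 it was more abundant than Ndufa4 itself, with 60.1% of the pair's FPKM, and at P8 it held 9.78% in Cd73NC and 1.21% in Cd73PC. Its log2 ratio from P2 to P8 was -2.92 in Cd73PC and -2.21 in Cd73NC. Most of that fall came between P5 and P8 in both fractions, as the P2 and P5 values were alike. Cox6b2, the testis-enriched form of subunit 6B, was at 7.12 at E15 and 22.0 at E18, and at 14.8 in Cd73NC against 7.29 in Cd73PC at P2, 11.3 against 3.51 at P5 and 6.33 against 2.996 at P8, with log2 ratios of -0.93, -1.44 and -0.87, and remained a minor form at 6.37% or less of its pair.

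**Figure D4:**
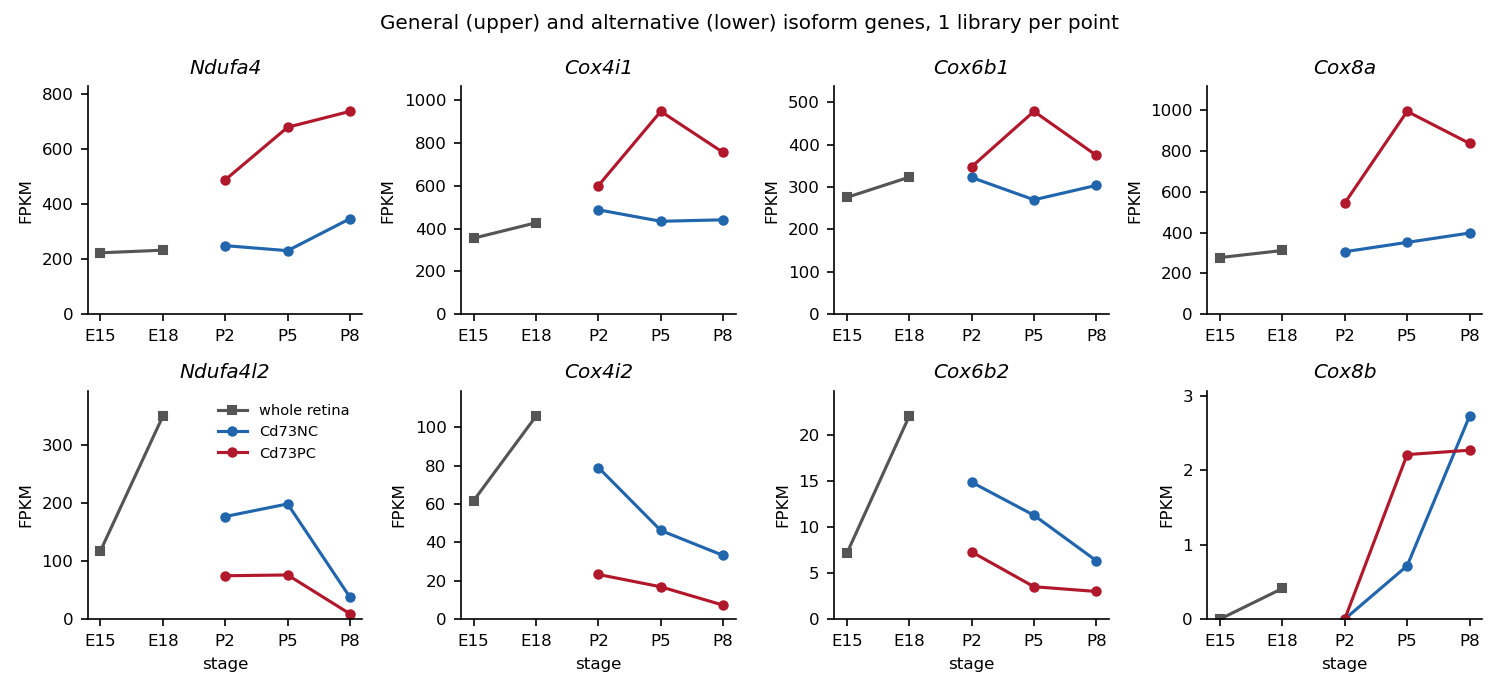
FPKM (y axes, from 0) of 4 general complex IV genes (upper row) and of an alternative form of each (lower row) against stage (x axis), with whole retina in grey, Cd73NC in blue and Cd73PC in red and 1 library per point. The Cd73PC value lies above the Cd73NC value at each stage for Ndufa4, Cox4i1, Cox6b1 and Cox8a and below it for Ndufa4l2, Cox4i2 and Cox6b2, which have their highest value at E18.

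Markers of cells known to use the alternative forms, and of hypoxia, were set beside them. Cox4i2 and Ndufa4l2 are both known from pericytes of vessels. The summed FPKM of 6 pericyte markers was 3.18 at E15, 2.42 at E18, 2.35, 16.6 and 24.9 in Cd73NC and 1.65, 10.7 and 3.61 in Cd73PC. At E18, where Cox4i2 and Ndufa4l2 were highest, 5 of the 6 pericyte genes were below FPKM 1, and Kcnj8 was at 0 in E15 and in both P2 libraries. From P2 to P8 in Cd73NC this sum was higher at P8 while both genes fell, and its part in their values was not tested. The summed FPKM of 6 endothelial markers was 45.9 at E15 and 105 at E18. At P2, P5 and P8 it was 169, 156 and 75.5 in Cd73NC and 35.3, 36.3 and 13.3 in Cd73PC. The median log2 ratios of these genes between fractions were -0.26, 0.15 and -0.37. From P2 to P8 in Cd73NC 1 of the 6 rose and 2 fell, with a median of 0.20. The part of this list was not tested either.

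The summed FPKM of 7 hypoxia response genes was 404 at E15, 497 at E18, 454, 345 and 315 in Cd73NC and 286, 230.2 and 214 in Cd73PC. It was highest at E18 and its Cd73NC value was above that of Cd73PC at each stage, as for the 3 isoform genes, and Slc2a1, a glucose transporter, made the largest part of it in each library. From P2 to P8 in Cd73NC, 3 of the 7 genes rose and 2 fell, with a median log2 ratio of 0.27, so the lower sum there was not shared by the list. The sum of 5 progenitor markers fell from 435 to 15.1 in Cd73NC and from 116 to 2.96 in Cd73PC, though it was higher at E15 (1197) than at E18 (633). The part of either list in the isoform values was not tested.

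Among the remaining forms, Cox8b, the muscle partner of Cox8a, was listed at 0 in E15 and in both P2 libraries and reached 2.72 in Cd73NC and 2.27 in Cd73PC at P8, at most 0.681% of its family. Cox7a1, the muscle form of subunit 7A, ranged from 1.59 in P2 Cd73NC to 6.05 at E18. Within that family Cox7a2 had 41.7%, 51.6% and 53.1% in Cd73PC at P2, P5 and P8 and 33.2%, 30.8% and 42.7% in Cd73NC, the rest being nearly all Cox7a2l. Cox6a2 and Cox7b2 made up less than 1% of their pairs in every library.

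Complex V, the ATP synthase, showed the same P5 peak with no member lower at any stage. Of its 15 genes, 0 were higher at P2, 11 at P5 and 4 at P8, against 13.7%, 11.3% and 12.1% of all genes. Atp5b, the catalytic beta subunit and the member with the highest mean FPKM, was at 478 at E15 and 480.3 at E18, and at 621 in Cd73NC against 677 in Cd73PC at P2, 542 against 873 at P5 and 536 against 874 at P8. It was higher in Cd73PC at P5 and P8, whereas Atp5a1, the alpha subunit that pairs with it, was at 351 in Cd73NC against 362 in Cd73PC at P2, 337 against 413 at P5 and 319 against 427 at P8 and passed the threshold at no stage. Atp5o, the stalk subunit that binds the catalytic head, had log2 ratios of 0.29, 1.30 and 0.78, and the membrane subunit Atp5k of 0.05, 0.90 and 0.98.

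The 3 genes for the identical c subunit of the rotor differed. Atp5g1, the least abundant, was at 74.2 in Cd73NC against 99.6 in Cd73PC at P2, 84.2 against 209 at P5 and 118 against 173 at P8. Atp5g2 was at 443 in Cd73NC against 379 in Cd73PC at P2, 346 against 456 at P5 and 319.9 against 350.2 at P8. Atp5g3 was at 366 in Cd73NC against 471 in Cd73PC at P2, 323 against 598 at P5 and 419 against 521 at P8. Atp5g1 rose from P2 to P8 in both fractions, by 0.79 in Cd73PC and 0.66 in Cd73NC on the log2 scale. It made up 10.5%, 16.5% and 16.5% of the family in Cd73PC, while Atp5g2 made up 39.9%, 36.1% and 33.5%.

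The comparison over time asks how the values of the genes moved with age within each fraction. In Cd73PC from P2 to P8, 10 members rose and 3 fell, against 10.3% and 23.7% of all genes, with a median log2 ratio of 0.18 against -0.18. The share that rose, 11.6%, was close to the background, and the share that fell, 3.49%, was below it. The 5 that rose most were Cox8b (1.71), Cox6a1 (0.80), Atp5g1 (0.79), Atp5sl (0.75) and Ndufb8 (0.62). Cox8b, from 0 to 2.27, lay near the floor. The 3 that fell were Ndufa4l2, Cox4i2 and Cox6b2, followed by Atp5j (-0.57) and Ndufc2, which did not pass 1.5-fold.

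From P2 to P5 in Cd73PC 15 members rose and 1, Cox6b2, fell, against 5.34% and 13.9% of all genes, and the median was 0.29 against -0.14. From P5 to P8 the median was -0.16, and 65 of 86 members had a ratio below 0, against a median of -0.05 and 7638 of 13421 over all genes. In that step 0 members rose and 2 fell, against 5.33% and 7.68% of all genes. The P5 Cd73PC library held the highest value of 45 members, the P2 and P8 Cd73PC libraries that of 13 each, and E15 and P5 Cd73NC that of none. The same count was not made over all genes. The 460 other short genes had a median of -0.32 from P5 to P8 in Cd73PC, so lower values after P5 were not particular to the members.

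In Cd73NC from P2 to P8, 4 members rose and 5 fell, against 20.9% and 23% of all genes, with medians of -0.09 and -0.05. The median of the members was above 0, at 0.067, after quantile normalization. The risers were Cox8b, Ndufv3, Cox7a1 and Atp5g1, of which Cox8b (0 to 2.72) and Cox7a1 (1.59 to 3.21) lay near the floor. The others fell: Ndufa4l2, Cox4i2, Cox6b2, Cox7a2l and Ndufab1, the acyl carrier protein. Both shares were far below those of all genes, and the P5 values were low, with a median of -0.25 from P2 to P5. Beside P2, the members were thus high in the P5 Cd73PC library and low in the P5 Cd73NC library. The 460 other short genes had medians of -0.09 in Cd73PC and -0.38 in Cd73NC from P2 to P5. The low P5 Cd73NC values were therefore not particular to the members, and the part of short transcripts in the P5 gap was not tested.

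Between E15 and E18, in unsorted retina, 4 members rose and 0 fell, against 7.37% and 3.31% of all genes, with medians of 0.20 and 0.04. Ndufa4l2 had a log2 ratio of 1.56, Cox6b2 of 1.502, Ndufs5 of 0.92 and Cox4i2 of 0.77. Of these 4, Ndufa4l2, Cox6b2 and Cox4i2 were also those that fell in both fractions from P2 to P8. A ratio above 0 from E15 to E18 was found for 82 of 86 members, against 7622 of 13418 over all genes. The 460 other short genes had a median of 0.14 in this step.

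The members were compared with the rest of their complex over the libraries. The correlation of log2(FPKM + 1) over the 8 libraries between a member and the median of the rest of its complex had a median of 0.83 over 82 members, was above 0.8 for 47 and below 0 for 7. Those 7 were Cox4i2, Cox6b2, Cox7b2, Ndufa4l2, Cox7a1, Cox6a2 and Sdhc. Of these, Cox6a2 reached at most FPKM 0.145, Cox7b2 0.258 and Cox7a1 6.05, so their correlations rest on values near the floor. All 4 complex II genes were low, at -0.04 for Sdhc, 0.08 for Sdhb, 0.37 for Sdhd and 0.44 for Sdha. The libraries share depth, stage and sort, so these are descriptions without a test. Members also lie often beside a gene read from the opposite strand. Of 86, 27, or 31.4%, had a divergent protein-coding neighbour starting within 1000 bases, against 14.1% of expressed genes. Of these 27 neighbours, 10 had a mean log2 ratio between fractions above 0 and 16 below 0. Over all genes the ratio was above 0 for 5363 of 13420 at P2, 4902 of 13420 at P5 and 4603 of 13421 at P8. Cox4i1 and Cox4nb, both members, are each other's neighbour. The pairs included Ndufs3 (mean ratio 0.49) with Kbtbd4 (0.84), and the Cd73PC-higher Ndufa4 (mean log2 ratio 1.20) starts 363 bases from Phf14, whose mean ratio was -0.59.

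The accompanying genes of the pathway are read against the shares of all genes at P2, P5 and P8, which were 13.7%, 11.3% and 12.1% higher and 23.3%, 25.1% and 29.6% lower in Cd73PC. Of 20 assembly factors, 0, 2 and 1 were higher in Cd73PC and 1, 1 and 2 lower at the successive stages. Sco2, a copper chaperone of complex IV, was lower in Cd73PC each time, at 4.47 in Cd73NC against 2.11 in Cd73PC at P2, 7.82 against 3.07 at P5 and 5.82 against 3.004 at P8. Of 76 genes of the mitochondrial ribosome, 2, 12 and 6 were higher in Cd73PC and 2, 0 and 0 lower, with medians of -0.12, 0.24 and 0.05. Mrpl49 alone among them was higher at all 3 stages, at 36.2 in Cd73NC against 113 in Cd73PC at P2, 61.8 against 171 at P5 and 44.5 against 157 at P8.

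Of 8 genes for the export, buffering and control of ATP, 1, 2 and 2 were higher and 0, 0 and 3 lower. Ckmt1, the mitochondrial creatine kinase, was higher in Cd73PC at all 3 stages, at 4.96 in Cd73NC against 36.9 in Cd73PC at P2, 25.1 against 105 at P5 and 28.4 against 149.7 at P8. Slc25a5, an ADP/ATP carrier, had log2 ratios of -0.30, 0.67 and 0.82, and the carrier Slc25a4 of 0.37, 0.45 and -0.50. Atpif1, the inhibitor of the ATP synthase, was at 284 in Cd73NC against 289 in Cd73PC at P2, 144 against 189.9 at P5 and 197 against 117 at P8. It fell from P2 to P8 in Cd73PC, where the sum of the complex V genes was 4429.6 at P2 and 4981 at P8.

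Of 14 regulators of mitochondrial genes, 3, 4 and 3 were higher in Cd73PC and 1, 1 and 2 lower. The coactivator Ppargc1a was at 0.509 at E15 and 1.06 at E18, and at 0.751 in Cd73NC against 3.61 in Cd73PC at P2, 1.997 against 5.87 at P5 and 0.996 against 6.73 at P8. Its relative Ppargc1b was at 0.359 at E15 and 0.479 at E18, and at 0.197 in Cd73NC against 1.67 in Cd73PC at P2, 0.384 against 6.97 at P5 and 1.55 against 13.4 at P8. Both were higher in Cd73PC at all 3 stages, while the third member of that family, Pprc1, was lower at all 3 with log2 ratios of -0.94, -1.05 and -0.83. Esrrb, an estrogen-related receptor and partner of these coactivators, was below FPKM 1 in both fractions at P2 and stood at 4.96 and 26.3 in Cd73PC against 0.231 and 1.64 in Cd73NC at P5 and P8.

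Esrrg, a related receptor, was at 4.77 in Cd73NC against 14.7 in Cd73PC at P2, 7.40 against 13.1 at P5 and 26.7 against 17.1 at P8, higher in Cd73PC at P2 and P5 and higher in Cd73NC at P8. Esrra, the most widely expressed of the 3 receptors, had log2 ratios of -0.17, -0.15 and -0.39. The general factors showed no difference past 1.5-fold at any stage, with ratios of -0.37, -0.27 and 0.13 for Nrf1, -0.23, -0.46 and 0.14 for Gabpa and -0.46, -0.38 and 0.03 for Tfam. All 3 had lower values at P8 than at P2 in both fractions. The Gabpa value may hold reads of Atp5j, whose row it overlaps.

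**Figure D5:**
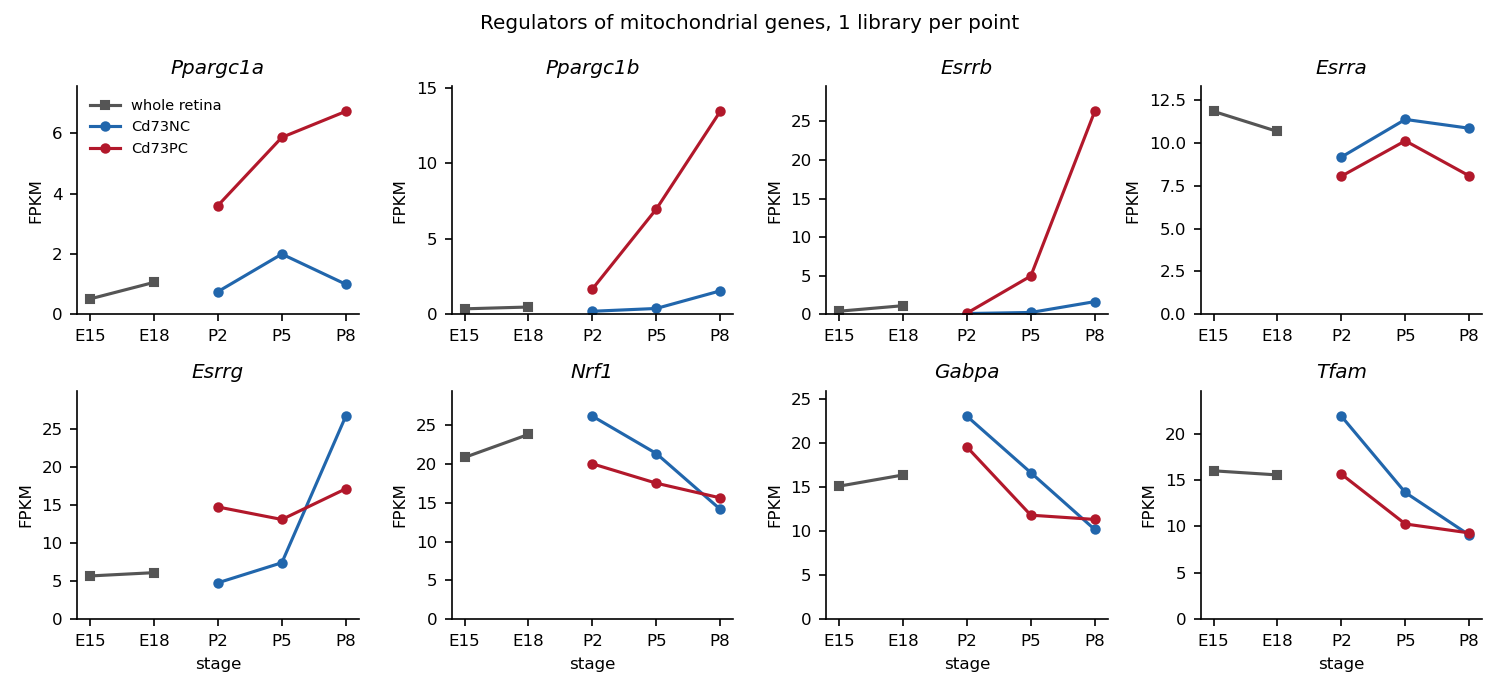
FPKM (y axes, from 0) of 8 regulators of mitochondrial genes against stage (x axis), with whole retina in grey, Cd73NC in blue and Cd73PC in red and 1 library per point. Ppargc1a and Ppargc1b lie higher in Cd73PC at each stage and Esrrb from P5, Esrrg changes side between P5 and P8, and Nrf1, Gabpa and Tfam have lower values at P8 than at P2 in both fractions.

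The 3 members that are not subunits differed among themselves. Atp5sl, now Dmac2, an assembly protein of complex I, was at 7.89 in Cd73NC against 10.3 in Cd73PC at P2, 10.6 against 20.3 at P5 and 10.1 against 18.0 at P8, and was higher in Cd73PC at P5 and P8. Atp5s, now Dmac2l, was at 3.91 in Cd73NC against 6.52 in Cd73PC at P2, 3.68 against 4.72 at P5 and 3.35 against 4.19 at P8, higher at P2 only. Cox4nb, now Emc8, belongs to a complex of the endoplasmic reticulum and starts 178 bases from Cox4i1 on the opposite strand. It was at 18.9 in Cd73NC against 13.7 in Cd73PC at P2, 15.5 against 15.8 at P5 and 19.8 against 16.2 at P8, with log2 ratios of -0.44, 0.03 and -0.27, and so did not share the Cd73PC-higher values of its neighbour.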

How the data were processed

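Poly(A) RNA of the 8 libraries was read as single ends. Per the labels and the study's methods, the authors aligned the reads to mm9 with TopHat2 2.0.8b, keeping reads with several hits, and estimated FPKM with Cufflinks 2.1.1. The deposited tables hold 1 FPKM value per gene with the lower and upper bound of the estimate. Members with near-copies elsewhere in the genome may have shared reads. For 62 to 65 of 86 members the FPKM lay outside its own bounds, so the bounds were not used as intervals of it, except in the non-overlap setting given below. The median half-width of the bounds, over the 79 members with a mean FPKM of at least 10, was 6.18% to 10.1% per library. In the 79 members with a mean of at least 10, FPKM was up to 2.96 times the midpoint of its bounds, with a CV over libraries of that quotient of at most 2.58%, so levels set side by side between genes, isoform shares included, are less certain than ratios of 1 gene between libraries.

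From the 23021 rows, 797 small RNAs were left out, rows sharing a symbol were summed, and failed estimates (20 genes, no member) were taken as missing. Ratios used FPKM + 1 and the threshold of 1.5-fold. The code for ratios and counts was tested on simulated data. Genes named were those past 1.5-fold the same way at 2 or more stages (up to 15), the 5 that rose and 5 that fell most in Cd73PC, isoform families, core subunits, pathway regulators and members that are not subunits. There is 1 member that is counted but not reported here by name. Others were named after their values were seen. The members and lists were chosen with earlier results of these data known. The comparison with short genes was added after the data were seen. Values were computed with Python 3.11.15, pandas 2.3.3 and numpy 2.4.6.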

Additional observations from a re-analysis of the deposited data

How the results depend on the processing

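Of 194 values recomputed under 12 other settings, 168 kept their sign and stayed within 1.5 times (counts) or 0.1 (medians). The values under the setting for failed estimates were fixed in advance, as no member had a failed estimate. No member shared its symbol with another row either, and the run without summing left out Sdha, Sdhb, Sdhc and Sdhd. Each member median between fractions kept its sign under every scaling and pseudocount tried.

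With libraries scaled to one upper quartile, 12 members were higher at P2 and 43 at P8, and the medians were 0.85 at P5, 0.57 at P8 and 0.34 from P2 to P8 in Cd73PC. Quantile normalization gave a P5 median of 0.63. From P2 to P8 in Cd73NC it gave 7 higher, 3 lower and a median of 0.067, the reverse of the deposited sign. It shifted the median of all genes between fractions by 0.17 at P5 and 0.24 at P8, where its sign reversed to 0.016. Relative to that median the members stood 0.32, 0.91 and 0.62 above it as deposited, 0.33, 0.94 and 0.66 after upper-quartile scaling and 0.26, 0.63 and 0.44 after quantile normalization.

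With a pseudocount of 0.1 or 0, 5 members were lower in Cd73PC at P8, 5 fell from P2 to P8 in Cd73PC and 7 rose from E15 to E18. At 2-fold, 1, 24 and 3 members were higher at P2, P5 and P8, 1 rose in Cd73PC, 2 rose and 3 fell in Cd73NC, and 2 rose from E15 to E18. The shares of all genes at 2-fold and under the other settings were not counted, so these counts have no background beside them. Where the bounds also had to be free of overlap, 60 members were higher at P5, 2 were lower at P8 and 3 rose in Cd73NC. Cox6b2 dropped out at P8, where its half-widths were 30.6% in Cd73NC and 52.9% in Cd73PC. Without the 10 members whose row overlaps another gene, chosen after the data were seen, 2 rose from E15 to E18. Without P5, 4 members were higher and 3 lower at both remaining stages. No fit over the 3 stage-matched pairs of fractions, which would take stages as replicates, was made.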
